A study of Mus musculus with 24 samples.

Results

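The 6 genes described here, Hba-a1, Hba-a2, Hbb-bs, Hbb-bt, Alas2 and Slc4a1, are erythroid genes, described here as candidate markers of how much red cell RNA a piece of tissue carries. They were taken by symbol from the 56065 genes of a table of normalized counts, and all 6 were found. The table covers 24 choroid libraries. In the study's dissections, choroid stood for the pigment epithelium, choroid and sclera together. Wild type and Ceacam1-/- littermates, in which exons 1 and 2 of Ceacam1 were deleted in every cell, had the C57BL/6J background and by the study's methods were of both sexes and 6 to 8 weeks old unless stated otherwise. Without laser there were 4 wild type and 4 Ceacam1-/- libraries, and with laser 9 wild type and 7 Ceacam1-/- libraries (6 Nd:YAG spots of 200 µm in each eye, 150 mW for 100 ms). The time between laser and dissection, whether these mice were perfused and the sex of each mouse are not given in the sources used here, and it is not stated that each library is 1 mouse, so p-values measure the spread between libraries. Normalized counts are the reads estimated for a gene, scaled for the size of the library and the length of the transcripts. They summed to between 23704300 and 35094400 in a library, and between 25021 and 27964 genes were above 0.

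Mature red cells of mice have no nucleus and make no new RNA, but young red cells, the reticulocytes, still carry transcripts, and most of these encode globin. An adult haemoglobin molecule pairs alpha chains with beta chains. In the mouse, Hba-a1 and Hba-a2 encode the alpha chain, and Hbb-bs and Hbb-bt, the pair of adult genes of the beta haplotype found in C57BL/6, encode the beta chain. Alas2 is the erythroid form of the enzyme that starts heme synthesis, and Slc4a1 is band 3, the anion exchanger that anchors the red cell membrane to its skeleton. Globin transcripts have also been described in pigment epithelium, which this tissue contains.

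The genes lie on 3 chromosomes of GRCm39. Hba-a1 (ENSMUSG00000069919, chr11:32233186-32234504, plus strand, 3 exons) and Hba-a2 (ENSMUSG00000069917, chr11:32246168-32247320, plus strand, 3 exons) are neighbours in the alpha cluster. Hbb-bs (ENSMUSG00000052305, chr7:103475730-103482989, minus strand, 3 exons) and Hbb-bt (ENSMUSG00000073940, chr7:103461727-103465047, minus strand, 3 exons) are neighbours in the beta cluster. Alas2 (ENSMUSG00000025270, chrX:149330371-149353634, plus strand, 11 exons) is X-linked. Slc4a1 (ENSMUSG00000006574, chr11:102239650-102257029, minus strand, 20 exons) lies elsewhere on chromosome 11.

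Each globin pair is close to identical, and this bears on how well its members can be told apart. The 429 coding bases of Hba-a1 and Hba-a2 differed at 1 base, C381T counted from the start codon of Hba-a1, and the 444 coding bases of Hbb-bs and Hbb-bt at 1 base, C417T counted from the start codon of Hbb-bs. Neither difference changes the protein, so that the alpha genes encode the same 142 residues and the beta genes the same 147. The stretches around these bases, taken from the annotated transcripts, are shown here because reads from them are among the few in the coding sequence that separate the genes, and the capital marks the base that differs.
Hba-a1: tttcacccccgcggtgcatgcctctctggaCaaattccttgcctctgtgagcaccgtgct
Hba-a2: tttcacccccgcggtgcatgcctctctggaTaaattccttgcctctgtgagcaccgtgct
Hbb-bs: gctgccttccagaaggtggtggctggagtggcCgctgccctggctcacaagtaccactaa
Hbb-bt: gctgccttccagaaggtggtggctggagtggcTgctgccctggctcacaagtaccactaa
Of the stretches of 31 bases in the Hba-a1 transcript, 82.8% were also in that of Hba-a2, and 95% of those of Hba-a2 were in that of Hba-a1. For the beta pair these shares were 63.1% of Hbb-bs and 59.3% of Hbb-bt. The split of reads within a pair is therefore an estimate of the quantification and is uncertain, the alpha pair more than the beta pair, while the sum over a pair does not depend on it.

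The promoters are shown because the globin genes varied together, as described further on. RefSeq windows of 300 bases (250 before the start and 50 after it, GRCm38.p6) were given for 5 of the 6 genes. The 120 bases before the start of each follow. Capitals mark a CACCC-type box, written CCNCNCCC, a GATA-type site, a CCAAT box and a TATA-like run, searched on both strands, and some of these overlap.
Hba-a1 (chr11:32283552-32283671, plus): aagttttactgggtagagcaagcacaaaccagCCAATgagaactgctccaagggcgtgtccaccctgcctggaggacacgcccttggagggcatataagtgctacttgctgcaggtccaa
Hbb-bs (chr7:103827929-103828048, minus): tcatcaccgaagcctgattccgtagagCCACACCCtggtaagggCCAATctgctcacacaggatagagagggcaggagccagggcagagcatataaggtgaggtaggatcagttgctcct
Hbb-bt (chr7:103813924-103814043, minus): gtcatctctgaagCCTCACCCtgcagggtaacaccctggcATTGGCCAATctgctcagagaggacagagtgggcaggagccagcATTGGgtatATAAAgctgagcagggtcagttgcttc
Alas2 (chrX:150547297-150547416, plus): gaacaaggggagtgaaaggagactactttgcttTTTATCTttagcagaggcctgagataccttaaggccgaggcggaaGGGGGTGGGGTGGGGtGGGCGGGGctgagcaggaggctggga
The alpha windows shared a run of 297 bases, so that of Hba-a2 is not printed, whereas the longest run shared by the beta windows was 14 bases. CCAAT was in the windows of the 4 globin genes, against 37.4% of all 32851 windows. The GATA-type site, either AGATAA or with T as its first base, was in those of Hba-a1, Hba-a2, Hbb-bs and Alas2, against 18.6%, and CCNCNCCC was in those of Hbb-bs, Hbb-bt and Alas2, against 49.5%. The TATA-like run, ATAAA, was in those of Hbb-bt and Alas2, against 40%. In Hbb-bt it began at -27, and in Alas2 it was on the opposite strand, at -209 and -87. The search did not cover TATAAG, which the printed Hba-a1 and Hbb-bs stretches hold in lower case. A window without ATAAA is therefore not one without a TATA-type run. These are matches of letters and not binding sites.

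Some features of the libraries bear on the values. Ceacam1 itself had 958 to 5027 normalized counts in wild type and 405 to 1171 in Ceacam1-/- libraries without laser, and 774 to 8367 and 67.8 to 905 with laser. The genotypes overlapped, by Ceacam1-/- library 28 without laser and library 15 with laser. Gene totals include reads from the exons that were kept, so these values do not check the labels. Tissue markers also differed widely between libraries of the same group. The summed normalized count of 12 photoreceptor genes, which mark outer retina left on the tissue, was above 600000 in 5 libraries, namely wild type library 21 and Ceacam1-/- library 23 without laser and Ceacam1-/- libraries 14, 15 and 18 with laser, and between 8195 and 292286 in the other 19. Gnat1, rod transducin, one of the most abundant of them, ran from 1053 to 281431. All 12 genes were above 0 in every library. The markers of the labelled tissue were present, with Rpe65 of the pigment epithelium at 2045 to 56349 and Pecam1 of endothelium at 895 to 3717. Muscle genes, which mark eye muscle left on the sclera, were present as well, and their sum over 12 genes ran from 20846 to 1494480, with Atp2a1 (3066 to 266396) and Acta1 (3804 to 277408) the most abundant.

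The globins were abundant but differed from library to library far more than from group to group. Hba-a1 was at 81.7, 159, 325 and 1324 normalized counts in wild type libraries 21, 22, 27 and 26 without laser, and at 156, 481, 772 and 1903 in Ceacam1-/- libraries 28, 24, 23 and 25. With laser it ranged from 169 (median 596) to 1716 in wild type and from 298 (median 648) to 4284 in Ceacam1-/- mice. The 4 groups overlapped, and single libraries within each differed by 10.1-fold to 16.2-fold.

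By the estimated split of reads, Hba-a2 was higher than Hba-a1 in every library, by 2.30 to 3.80 times, and varied in much the same order. It was at 246, 366, 924 and 3413 in the wild type libraries without laser and at 435, 1292, 2104 and 4680 in the Ceacam1-/- libraries. With laser it went from 637 (median 1682) to 6516 in wild type and from 834 (median 1777) to 13080 in Ceacam1-/- mice. The 2 highest libraries of all, 6 and 4, were Ceacam1-/- with laser, and the lowest was wild type library 21 without laser. For both alpha genes the 7 Ceacam1-/- laser libraries included 5 inside the wild type laser range and 2 above it.

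The beta genes followed. Hbb-bs was at 239, 361, 803 and 2788 in wild type and at 236, 880, 2007 and 3809 in Ceacam1-/- libraries without laser, and at 540 (median 1623) to 4032 and 687 (median 1641) to 9063 with laser. Hbb-bt was the lowest of the 4, at 37.2, 42.1, 138 and 521 in wild type and 39.8, 200, 394 and 525 in Ceacam1-/- libraries without laser. With laser it was at 92.0 (median 397) to 792 in wild type and 118 (median 393) to 2885 in Ceacam1-/- mice. Again all groups overlapped, and the libraries that were low or high for the alpha genes were low or high here. By the estimated split of reads, Hbb-bs exceeded Hbb-bt by 3.14 to 8.58 times.

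Alas2 was low and ran over a narrower range, from 10.8 in wild type library 1 to 154 in Ceacam1-/- library 6, both with laser. Without laser it was at 16.9, 25.6, 34.0 and 70.7 in wild type and 22.9, 41.0, 56.7 and 96.2 in Ceacam1-/- libraries. With laser it was at 10.8 (median 23.2) to 57.7 in wild type and 13.1 (median 47.0) to 154 in Ceacam1-/- mice. Of the latter 7, 3 lay above every wild type laser library and 4 within their range. Slc4a1 was near 0 throughout. It was listed at 0 in all 8 libraries without laser and in 8 of 16 with laser, and the highest value was 6.26, in Ceacam1-/- library 15, which ranked only 16 of 24 for the globins.

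**Figure D1:**
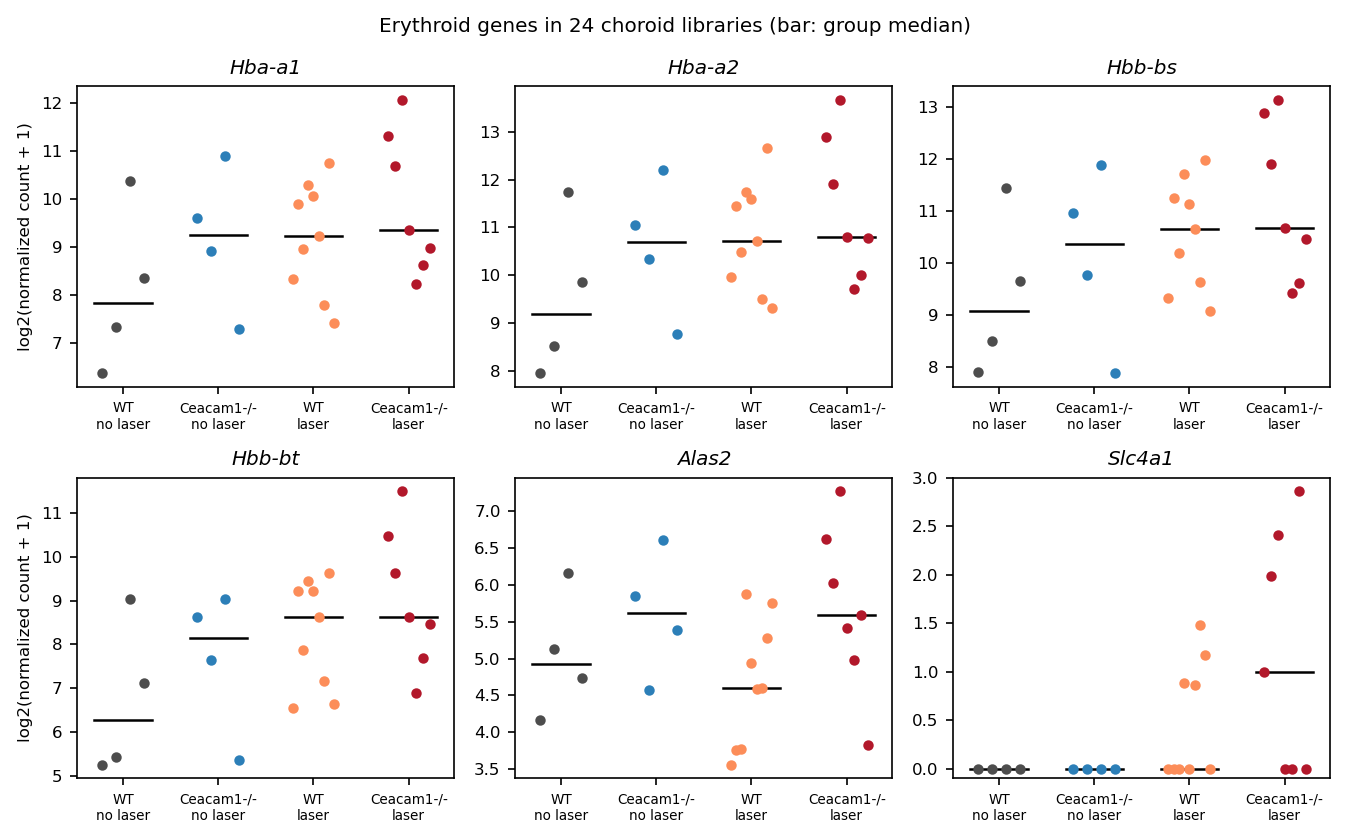
Normalized counts of the 6 erythroid genes as log2(value + 1) on the y axis, 1 point for each of the 24 libraries, by genotype and laser, with a bar at the group median (each panel has its own axis range). The points of the 4 groups overlap in every panel, and for Slc4a1 all 8 libraries without laser lie at 0.

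Compared per kilobase of transcript, the order of the genes was the same in nearly all libraries. Hba-a2 was highest (group medians 997 to 2747 normalized counts per kb), above Hbb-bs (876 to 2472) in 23 of 24 libraries. Hba-a1 (328 to 878) came next and Hbb-bt (128 to 564) after it, each in its place in 24 of 24 libraries. These places rest on the estimated split of reads within each pair, which is uncertain. The same order in many libraries does not check that split. The step from the globins to Alas2 (11.4 to 24.0 per kb) was wide, and Slc4a1 (0 to 0.218 per kb) was below Alas2 in 24 of 24. Together the 4 globins made up 0.00252% to 0.113% of all normalized counts. Between-group differences accounted for 20% of the variance of their mean log2 value over the 24 libraries, and 80% lay between libraries of the same group. Some share lies between 4 groups even without a group effect, and the shares of other genes were not computed, so this split is a description.

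The summed alpha genes were 1.00 to 2.14 times the summed beta genes, with group medians from 1.26 to 1.58. The globin sum was 21.1 to 545 times Alas2, a 25.8-fold range. The alpha to beta ratio thus kept within a 2.14-fold range while the globin sum itself covered a 48.5-fold range.

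The globin genes rose and fell together across libraries, and Alas2 only in part. Over the 24 libraries, Pearson's r of log2(value + 1) was 0.97 to 0.99 for the 6 pairs of globin genes, and Spearman's rho 0.97 to 1.00 (permutation p = 1e-05, the smallest 100000 resamples can give, adjusted p = 2.5e-05 over 15 pairs). As deviations from the group means r was 0.97 to 0.99, and without the 2 libraries farthest from the median of the first gene 0.95 to 0.99. Part of the likeness within the alpha and within the beta pair may lie in how reads of near-identical transcripts are split, which was not tested. Between an alpha and a beta gene, Hba-a2 and Hbb-bs, r was 0.98 and rho 0.98. The points share libraries and their scaling.

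Alas2 correlated with each globin less closely, with r between 0.51 and 0.57 and rho between 0.50 and 0.55 (permutation p at most 0.0143, adjusted p at most 0.016 for r and 0.0195 for rho). As deviations from group means r was 0.57 to 0.61. Without libraries 6 and 21 it dropped to 0.43 with Hba-a1 and 0.38 with Hba-a2, so that for the alpha genes the relation rests in part on the highest and the lowest library. For the beta genes the libraries left out were 21 and 28, and r was 0.59 with Hbb-bs and 0.54 with Hbb-bt. The relation of Alas2 with the beta genes was thus not examined without library 6. Within the 9 wild type laser libraries r of Alas2 with Hba-a1 was 0.15, and within the 7 Ceacam1-/- laser libraries it was 0.83; whether these differ was not tested. Slc4a1, at 0 in 16 libraries, gave r of 0.38 to 0.44 with the globins and 0.44 with Alas2, and rho of 0.40 to 0.52 and 0.41. For r, 3 of these 5 adjusted permutation p were above 0.05 (each 0.0699), and the 2 below were for Hbb-bt and Alas2 (each adjusted p = 0.0426), and as deviations from group means r of Slc4a1 was 0.26 with Hbb-bt (adjusted permutation p = 0.28) and 0.46 with Alas2 (adjusted permutation p = 0.0306).

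**Figure D2:**
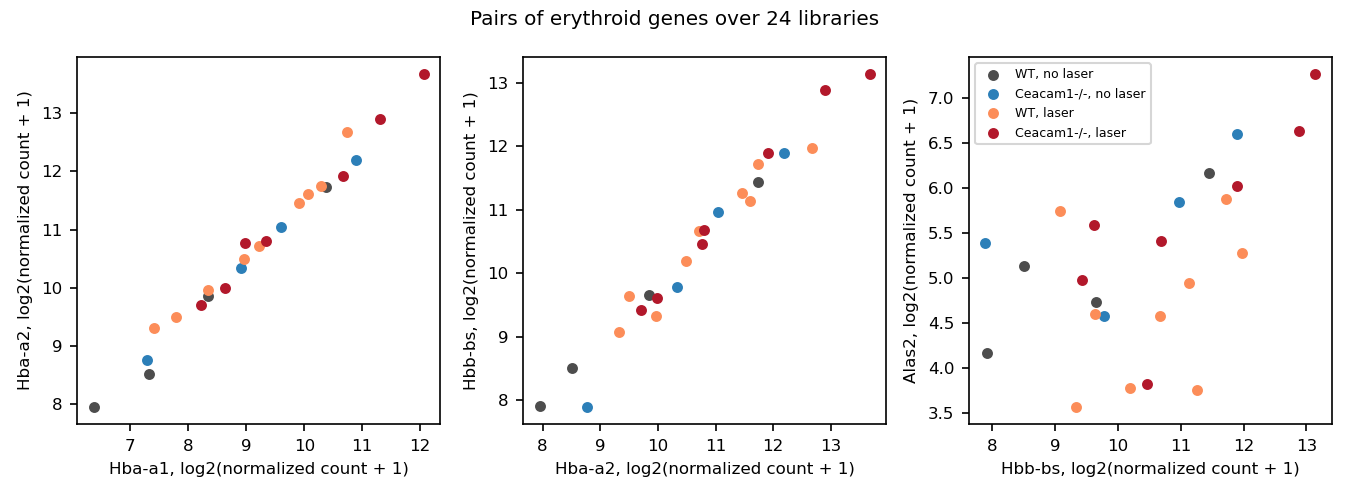
Each point is 1 of 24 libraries, coloured by group, with log2(normalized count + 1) of 1 gene on each axis. Hba-a1 and Hba-a2 (r = 0.99) and Hba-a2 and Hbb-bs (r = 0.98) fall along a line across all 4 groups, while Hbb-bs and Alas2 (r = 0.55) scatter.

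Whether the erythroid genes differed with genotype or laser was tested with limma across all genes with a mean of at least 10 normalized counts, which 5 of the 6 members passed; Slc4a1, mean 0.802, did not. In no comparison was a member called at an adjusted p under 0.05, and 0 of the 5 had an unadjusted p under 0.05 between groups. In Ceacam1-/- against wild type mice without laser, where 0% of 20057 genes were called (307 at an unadjusted p under 0.05), the members were 0.56 to 1.07 higher on the log2 scale, all with adjusted p = 0.999, against a median of -0.02 over all genes. For Hba-a2 the difference was 1.07 ± 0.92 (SE), and its 95% interval reached from -1.01 to 3.15. That interval reaches from about 2-fold lower to more than 8-fold higher, so the size of the difference was not determined at 4 against 4 libraries of this spread. Leaving out 1 library moved the value for Hba-a2 to between 0.53 (without Ceacam1-/- library 25) and 1.81 (without wild type library 26). In the same comparison 12 of 12 photoreceptor genes (median -1.66) and 12 of 12 muscle genes (median -0.24) were lower. Of either list, 0 had an unadjusted p under 0.05, and pigment epithelium genes went both ways.

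In Ceacam1-/- against wild type mice with laser, 0.0202% of 19757 genes were called and none of the 5 members (4479 genes, or 22.7%, had an unadjusted p under 0.05). The globins differed by 0.57 to 0.77 (SE 0.58 to 0.64, adjusted p 0.458 to 0.56) and Alas2 by 0.99 ± 0.48 (adjusted p = 0.226), with a median of 0.01 over all genes. Of the 5 members tested, Alas2 here had the smallest p in any group comparison, 0.0541 before adjustment, and its 95% interval ran from -0.02 to 2.01. With 1 library left out, Hba-a2 was between 0.19 (without library 6) and 0.85 (without library 14), and Hba-a1 between 0.34 and 0.98 without the same libraries. Tissue markers moved in the same comparison, with 0 called: 12 of 12 photoreceptor genes were higher (median 2.02, 8 at an unadjusted p under 0.05), 12 of 12 pigment epithelium genes lower (median -1.20, 7) and 12 of 12 muscle genes lower (median -1.35, 12). Their part in the member values was examined only by the photoreceptor alternatives given further on. The number of genes called went from 4 to 61 without wild type library 19 and to 25 without library 17.

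Laser against no laser gave the largest numbers of calls but still none among the members. In wild type mice, 5.28% of 19950 genes were called (3993 at an unadjusted p under 0.05), and the globins were 1.09 to 1.56 higher (SE 0.77 to 0.84, adjusted p 0.305 to 0.448), while Alas2 was at -0.37 ± 0.56 (adjusted p = 0.732). In Ceacam1-/- mice, 3.72% were called (3997 at an unadjusted p under 0.05), the globins were 0.72 to 1.37 higher (SE 0.81 to 0.88, adjusted p 0.397 to 0.654) and Alas2 was at 0.07 ± 0.58 (adjusted p = 0.955). The medians over all genes were -0.10 and 0.02. Tissue markers moved as well, with 0 called. In wild type mice 12 of 12 photoreceptor genes were lower (median -1.34, 0 at an unadjusted p under 0.05). So were 12 of 12 muscle genes (median -0.89, 1), while pigment epithelium genes went both ways. In Ceacam1-/- mice 12 of 12 photoreceptor genes were higher (median 2.23, 1). There 12 of 12 pigment epithelium (median -0.84, 6) and 12 of 12 muscle genes (median -2.02, 11) were lower. With 1 library left out, Hba-a1 was between 0.51 (without library 21) and 1.84 (without library 26) in wild type, and between 0.088 (without library 28) and 1.29 (without library 25) in Ceacam1-/- mice. The interaction of laser and genotype called 0% of genes (1241 at an unadjusted p under 0.05) and was between -0.50 and 0.44 for the members (SE 0.81 to 1.22, adjusted p 0.845 to 0.961), and the globin values turned above 0 without the photoreceptor-rich libraries. These comparisons share libraries. In bulk tissue, fewer cells and less RNA in each cell cannot be told apart.

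Two-sided exact permutation tests of the difference in mean normalized count gave the same picture in 23 tests. The p-values were 0.429 to 0.571 for genotype without laser, where the smallest p that 70 arrangements allow is 0.0286. They were 0.0545 (Alas2) to 0.303 for genotype with laser, 0.159 to 0.481 for laser in wild type and 0.212 to 0.782 for laser in Ceacam1-/- mice. For 0 of the 6 members did 2 groups fail to overlap, against 1.36%, 0.147%, 6.25% and 2.13% of all genes tested in these 4 comparisons. Slc4a1 was above 0 in 4 of 9 wild type and 4 of 7 Ceacam1-/- laser libraries and in none without laser (exact permutation p = 0.352 and 0.212), and no fold is given against groups listed at 0. In the limma fit without a filter on low values, laser in Ceacam1-/- mice gave Slc4a1 an unadjusted p of 0.0189 (adjusted p = 0.254). In the main limma fits the smallest unadjusted p of a member between groups was 0.0541, for Alas2 between genotypes with laser.

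**Figure D3:**
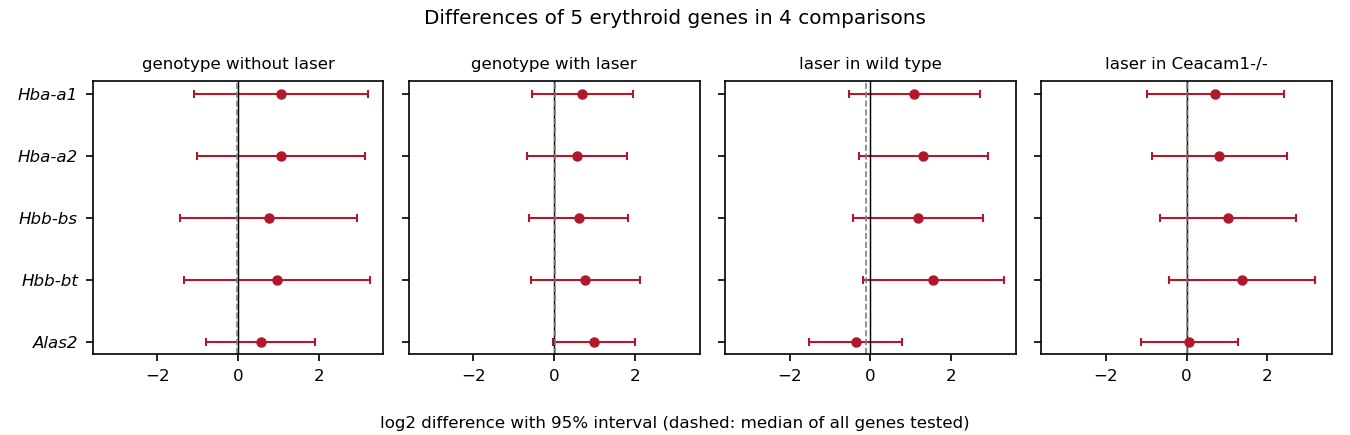
Log2 difference (x axis) of the 5 members tested in each of 4 comparisons, with 95% intervals from limma, a solid line at 0 and a dashed line at the median of all genes tested. The interval of every member in every comparison includes 0.

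The 5 photoreceptor-rich libraries stood at ranks 10 to 24 of 24 for globin, and leaving them out moved several member values, without a call. In Ceacam1-/- mice the laser difference of Hbb-bs went from 1.03 to 2.30 (adjusted p = 0.0883) and of Hbb-bt from 1.37 to 2.71 (adjusted p = 0.068). There, that of Hba-a1 went from 0.72 to 1.82 and of Hba-a2 from 0.81 to 1.89. In wild type mice that of Hba-a1 went from 1.09 to 0.51 and of Hba-a2 from 1.31 to 0.79. In these mice Hbb-bs went from 1.18 to 0.69 and Hbb-bt from 1.56 to 1.07. Between genotypes with laser, Hba-a1 went from 0.70 to 1.66, Hba-a2 from 0.57 to 1.49, Hbb-bs from 0.60 to 1.6, Hbb-bt from 0.77 to 1.79 and Alas2 from 0.99 to 1.65 (adjusted p 0.33 to 0.497). Without laser, the difference of Hbb-bs between genotypes went from 0.76 to -0.01. That of Hba-a1 went from 1.07 to 0.35, of Hba-a2 from 1.07 to 0.40 and of Hbb-bt from 0.96 to 0.15. Alas2 went from 0.56 to 0.18. This alternative was chosen after seeing the data, as was a fit with the photoreceptor list as a covariate, in which no member was called either.

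Genes that work beside the members in red cells were next compared with them, from lists of erythroid genes. Some of these genes were near 0. Of 10 other globin genes and chaperones, 7 had a mean under 10 normalized counts. Hbb-y, an embryonic beta-type globin, was at 0 to 22.9, and Ahsp, the chaperone of free alpha chains, at 0 to 12 and above 0 in 13 of 24 libraries. The 2 most abundant of that list were not erythroid, namely Mb, the myoglobin of muscle, at 349 to 106212, and Cygb, cytoglobin, at 1959 to 4665. Of 16 red cell membrane genes, 5 had a mean under 10. Of 11 erythroid transcription regulators 5 did, among them Gata1 (0 to 10.4) and Klf1 (0 to 13.3), and of 16 reticulocyte genes 2 did. The genes of these lists that were abundant, such as Slc2a1 (5080 to 18655) and Aqp1 (1620 to 8007) of the membrane list, Lmo2 (857 to 3372) and Ldb1 (1278 to 2372) of the regulators and Bnip3l (4552 to 7878) and Prdx2 (3601 to 9809) of the reticulocyte list, are also expressed in other cells.

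Few genes of these lists were called. After laser in wild type mice, where 5.28% of all genes were called and the median change over all genes was -0.10, 0 of 3 other globins, 0 of 13 heme synthesis genes, 0 of 11 membrane genes and 0 of 6 regulators were called, and 1 of 14 reticulocyte genes was, Tent5c, a poly(A) polymerase (1.46 ± 0.36, adjusted p = 0.0177). Heme synthesis had a median change of -0.20 and 10 of its 13 genes were below 0, 5 of the 13 at an unadjusted p under 0.05, with Fech, ferrochelatase, and Alas1, the form of the first enzyme used outside red cells, as its most abundant genes. After laser in Ceacam1-/- mice, where 3.72% of all genes were called, 12 of 13 heme synthesis genes were below 0 (median -0.16, 0 called), and 3 of 11 membrane genes fell, with 6 of the 11 at an unadjusted p under 0.05. These were Sptb (-1.32 ± 0.35, adjusted p = 0.0376), Ank1 (-1.80 ± 0.48, adjusted p = 0.0362) and Tmod1 (-1.68 ± 0.41, adjusted p = 0.0251), which encode parts of the spectrin skeleton that muscle shares with red cells. Tspan33 of the reticulocyte list fell as well (-1.60 ± 0.42, adjusted p = 0.0363). The 12 muscle genes had a median of -2.02 in the same comparison, with 0 called and 11 of 12 at an unadjusted p under 0.05 (3997 of all 19950 genes), and the part of muscle in these 4 genes was not tested. Genotype called 0 genes of any list, beside 0% of all genes without laser and 0.0202% with laser.

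Single genes of the blood and heme lists rose after laser, where 5.28% of all genes were called in wild type and 3.72% in Ceacam1-/- mice. Hmox1, heme oxygenase 1, which breaks down heme, was at 215 to 422 in wild type without laser and 1211 to 4232 with laser, and at 188 to 353.9 and 442 to 1511 in Ceacam1-/- mice, with no overlap in either genotype (6.25% and 2.13% of all genes did not overlap). The changes were 2.69 ± 0.32 (adjusted p = 1.32e-05) and 2.00 ± 0.33 (adjusted p = 0.00145). Blvra, biliverdin reductase A, the next step, rose by 0.68 ± 0.14 in wild type mice (adjusted p = 0.00577). Hmox1 and Blvra were the 2 of 13 heme clearance genes called in wild type, and Hmox1 the 1 called in Ceacam1-/- mice; the most abundant, the ferritins Fth1 and Ftl1, were not called. For Hmox1 the groups with and without laser were thus apart in both genotypes, whereas for each of the 4 globins they overlapped.

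Among blood cell lists, beside the same 5.28% and 3.72% of all genes called, Pf4, a chemokine of platelets that macrophages also express, rose by 2.15 ± 0.40 in wild type (adjusted p = 0.00192) and 1.77 ± 0.42 in Ceacam1-/- mice (adjusted p = 0.02), and was the 1 of 6 platelet genes called in each; the next most abundant, Itgb3, was not. Of 7 neutrophil genes 3 rose in wild type, Mmp8 (4.55 ± 0.60, adjusted p = 5.03e-05), S100a8 (2.37 ± 0.56, adjusted p = 0.0129) and Csf3r (1.85 ± 0.44, adjusted p = 0.0124), and 2 in Ceacam1-/- mice, Mmp8 (3.71 ± 0.63, adjusted p = 0.00186) and S100a8 (3.25 ± 0.59, adjusted p = 0.00315). Of 12 lymphocyte genes, Ighm (1.63 ± 0.42, adjusted p = 0.0237) and Trbc2 (2.27 ± 0.56, adjusted p = 0.017) rose in wild type and Trbc2 (2.08 ± 0.58, adjusted p = 0.0461) in Ceacam1-/- mice. The most abundant gene of the neutrophil list, Ltf, lactoferrin, was at 0.58 ± 1.11 and -0.59 ± 1.16 in the genotypes, and Igkc, an immunoglobulin light chain, at 0.38 ± 0.70 and -0.62 ± 0.73, none of them called.

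To ask which genes varied with the globins between libraries of the same group, the globin level, the mean log2(value + 1) of the 4 globin genes in a library, was entered beside the 4 groups. It ran from 6.87 to 12.60. Of 19946 genes, 0% were called at an adjusted p under 0.05, while 5111 had an unadjusted p under 0.05 and the lowest adjusted p was 0.0525. The slope of Alas2, which is not part of the level, was 0.40 ± 0.12 per unit of level (adjusted p = 0.0766), against a median of -0.00 over all genes. Without Ceacam1-/- library 23 or 28 the number of genes called was 3023 or 2199, and Alas2 was among them at slopes of 0.40 and 0.45. With the unfiltered table, that of Slc4a1 was 0.13 ± 0.12 (adjusted p = 0.581). Hmox1, which rose after laser, had a slope of 0.03 ± 0.08 (adjusted p = 0.865).

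The lists differed in slope, although no gene of any list was called. All 12 photoreceptor genes had slopes below 0 (median -0.89, and -0.90 ± 0.29 for Gnat1, adjusted p = 0.0805), and all 12 had an unadjusted p under 0.05. All 14 endothelial genes (median 0.23, with 0.32 ± 0.11 for Plvap and 0.31 ± 0.10 for Emcn), 12 pigment epithelium genes (median 0.33, with 0.44 ± 0.11 for Ttr and 0.47 ± 0.12 for Rgr), 12 muscle genes (median 0.29) and 13 heme clearance genes (median 0.20) had slopes above 0, as did 11 of 12 lymphocyte genes (median 0.25). Of these, 12 endothelial, 8 pigment epithelium, 2 muscle, 8 heme clearance and 6 lymphocyte genes had an unadjusted p under 0.05, beside 25.6% of all genes. Among erythroid lists, 8 of 13 heme synthesis, 7 of 11 membrane, 4 of 6 regulator and 8 of 14 reticulocyte genes were above 0, with medians of 0.04, 0.14, 0.09 and 0.05. In these lists 2 of 13, 7 of 11, 3 of 6 and 5 of 14 genes, of either sign, had an unadjusted p under 0.05. The medians of the platelet and neutrophil genes were 0.17 and 0.11, with 1 of 6 and 0 of 7 at an unadjusted p under 0.05. Genes of a list share libraries and vary together, so these counts are descriptions. The slopes are averages over the groups and single libraries departed from them, since Ceacam1-/- library 23, rich in photoreceptor RNA, had more globin than libraries 24 and 28 of its group. The part of each tissue in the globin level was not tested.

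**Figure D4:**
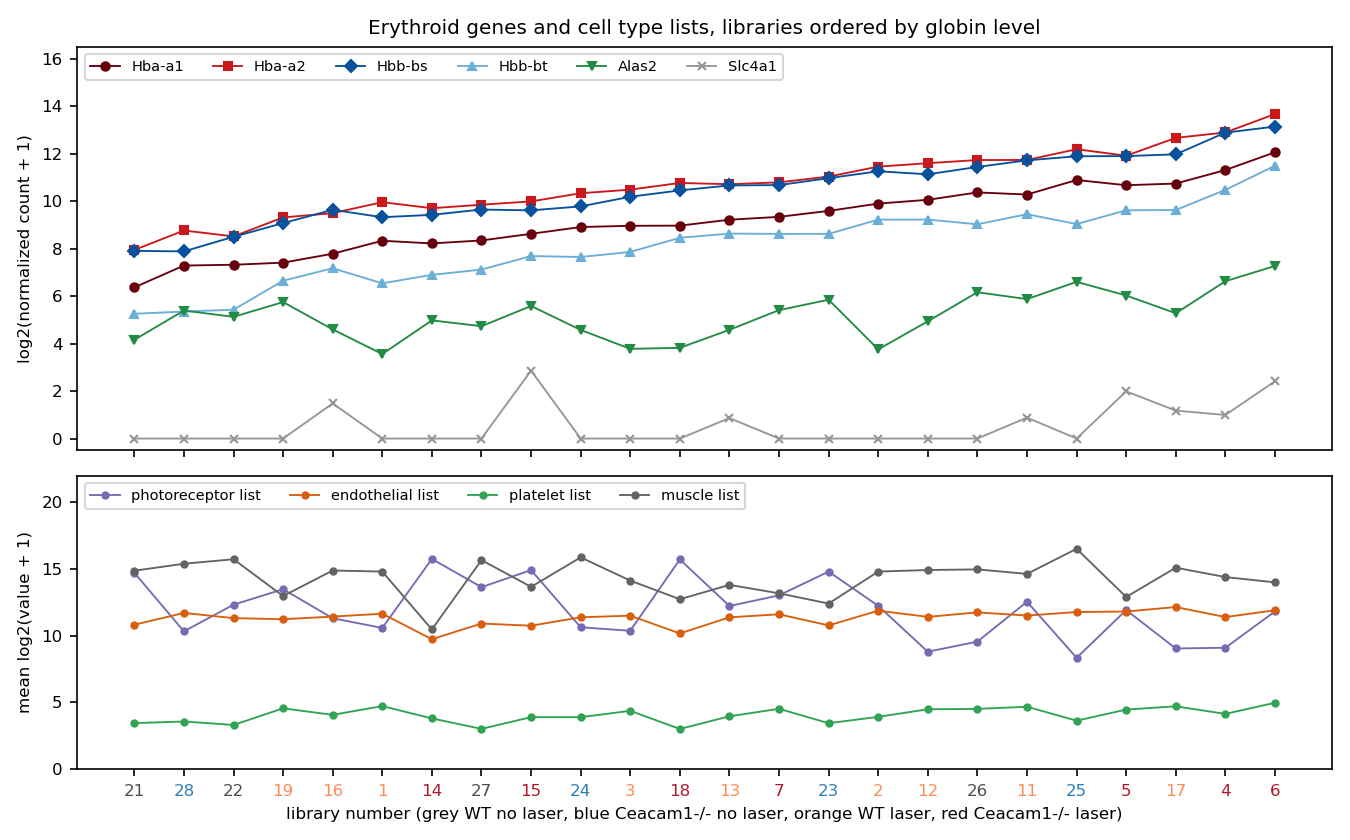
The 24 libraries along the x axis in order of globin level, with log2(normalized count + 1) of the 6 erythroid genes above and the mean log2(value + 1) of 4 cell type lists below. The 4 globins climb in parallel while Alas2 wavers between 3.56 and 7.27, and the photoreceptor list runs from 8.34 to 15.76, with its highest values in 3 of the 7 Ceacam1-/- laser libraries and in 1 library of each group without laser.

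**Figure D5:**
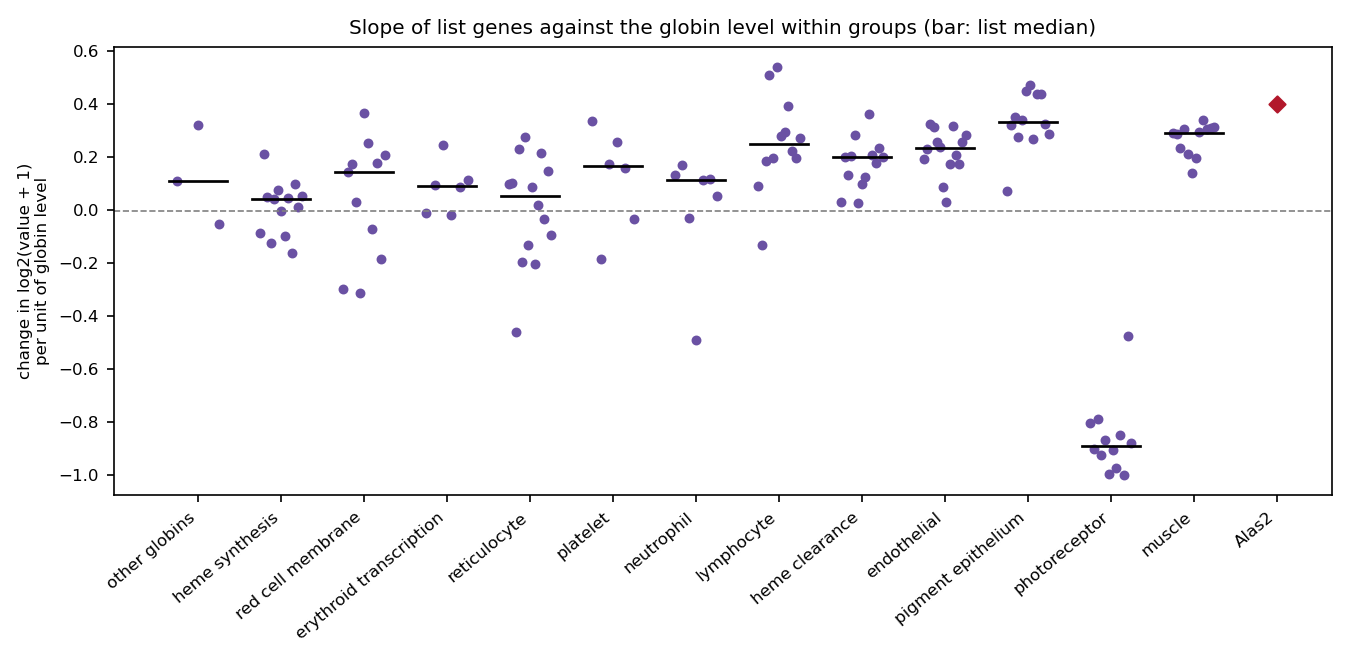
Slope against the globin level (y axis, change in log2(value + 1) per unit) for each gene of 13 lists, with a bar at the list median, a dashed line at the median of all genes tested, and Alas2 at the right. The photoreceptor genes lie between -1.0 and -0.47, and Alas2 lies at 0.40.

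Over all 24 libraries, without regard to group, the genes most like the globin level were not erythroid. Cd79a, a part of the B cell receptor, had the highest Pearson's r of 19945 genes other than the members, at 0.77 (deviations from group means, 0.73), with values from 2.31 to 69.1. It was followed by Bmpr2 (0.72), a BMP receptor, and by Gpr137 (0.72), Lysmd2 (0.71), Cdk5rap3 (0.70), Mthfs (0.70), Nubp2 (0.69), 2810433D01Rik (0.69), Rinl (0.69) and 5033406O09Rik (0.68). The r of Alas2 was 0.55 and that of Slc4a1 0.40. The median over these genes was -0.03 and the 95th percentile 0.45.

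Taking the level as a covariate changed the number of genes called between laser and no laser, in opposite directions in the genotypes. In wild type mice 696 genes (3.49%) were called in place of 1053, and 650 were in both sets, 61.7% of the genes called without the level and 93.4% of those called with it. In Ceacam1-/- mice 1654 (8.29%) were called in place of 742, and 737 were in both, 99.3% of the former and 44.6% of the latter. The 4 globins make up the level, so their own changes are removed with it and are not read here, and Alas2 was not called in either genotype (-0.88 ± 0.50 and -0.32 ± 0.51, adjusted p = 0.396 and 0.714). The muscle list went from 0 to 9 of 12 genes called lower in Ceacam1-/- mice and the pigment epithelium list from 0 to 5 of 12, among them Rdh5, a retinol dehydrogenase (-2.27 ± 0.41, adjusted p = 0.00281), while Hmox1 stayed at 2.66 ± 0.34 and 1.98 ± 0.35 in the genotypes. Calls in Ceacam1-/- mice went from 3 to 5 of 11 membrane genes, from 0 to 1 each of the other globins (Mb), heme synthesis genes (Alad) and regulators (Nfe2), and from 1 to 4 of 13 heme clearance genes. In wild type mice those of the lymphocyte list went from 2 to 0 and of the reticulocyte list from 1 to 0.

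The direction of this shift held when single libraries were left out, but the counts did not, and in wild type mice the direction turned without the photoreceptor-rich libraries (1645 genes without and 1898 with the level). Nor was the size of the shift in Ceacam1-/- mice kept with the photoreceptor list as a covariate. With that list and the level, 808 genes were called there, in place of 1654, beside 742 with neither. In wild type mice 1184 were called, in place of 696, beside 1053 with neither. Of 13 leave-outs in wild type mice 13 gave fewer calls with the level (346 to 783, against 479 to 1162 without it), and of 11 in Ceacam1-/- mice 11 gave more (189 to 5459, against 148 to 2488). Without library 23 the counts in Ceacam1-/- mice were 2488 without and 5459 with the level, and without library 25 they were 148 and 189. In Ceacam1-/- mice a single library thus moved these counts by more than the globin level did.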

How the data were processed

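Choroid RNA was sequenced from SMART-Seq libraries. The authors quantified reads with Salmon 1.10.3 on GRCm39 (release vM35), imported them into DESeq2 1.44.0 and deposited normalized counts (unit: signal) for 56065 genes; 55563 identifiers (99.1%) matched the annotation. Whole reads could not be recovered, since 48.9% to 87.7% of low values in a library lay within 5% of a whole multiple, so no count test was run. Normalized counts summed to 23704300 to 35094400 a library. Such sums are not sequencing depth, which is unknown here.

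Groups came from the labels. limma 3.58.1 (R 4.3.3, trend, Benjamini-Hochberg, threshold 0.05) was run on log2(value + 1) for genes with a mean of at least 10, on 8 or 16 libraries for genotype and on 24 for laser, interaction and globin level, and was tested on simulated data. Fold changes understate low genes. Exact permutation tests and correlations used scipy 1.17.1. Values outlying in a group were sought with Dixon's test.

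Genes named are the 6 members, each list's 2 most abundant genes and up to 5 of lowest p among those called, and the 10 of highest r with the globin level. Examples near 0, Hspa1a and Hspa1b were chosen after their values were seen. Members and lists were chosen with earlier results of these data known. The sex of the mice was not in the labels. Some genes of the lists are not reported here by name.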

Additional observations from a re-analysis of the deposited data

Results flagged for a closer look

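Of 22 sets of values of 1 member in 1 group, 1 held a library far from the rest: Hba-a2 in wild type library 17 with laser, at 6516 normalized counts against 3418 in the next highest of 9 libraries. The gap was 0.527 of the range of the group. By chance about 1 in 20 groups of normally distributed values holds such a value. The test was run on normalized counts and not on log2 values, and the globins varied together, so this rate is only a rough guide. As log2(value + 1) library 17 was at 12.67, the next highest at 11.74 and the lowest at 9.32. The same library was also the highest of its group for Hba-a1, Hbb-bs and Hbb-bt, by smaller gaps.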

How the results depend on the processing

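Under every alternative run the number of members called stayed at 0 in each group comparison. The interaction changed sign for the globins, with no call: with array weights it was 0.46 for Hba-a1, 0.36 for Hba-a2, 0.75 for Hbb-bs and 0.63 for Hbb-bt, without the 5 photoreceptor-rich libraries 1.31, 1.098, 1.61 and 1.63, and with the photoreceptor list as covariate 1.02, 0.84, 1.08 and 1.01. Leaving out 1 library at a time gave -1.13 to 0.21, -1.25 to 0.031, -0.90 to 0.43 and -0.96 to 0.30. With 1 library left out, Alas2 ranged from -0.66 to 0.0060 for laser in wild type and from -0.27 to 0.40 in Ceacam1-/- mice, and over all alternatives it reached 0.98 in the latter, with array weights. In the genotype and laser comparisons the 4 globins kept their sign with 1 library left out, but several values moved by over 1.5 times. Hbb-bs between genotypes without laser was at -0.011 without the photoreceptor-rich libraries, and the other members tested were at 0.15 to 0.40.

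The number of genes called against the globin level, 0, was 60 with a pseudocount of 10, 1 with a mean of at least 50, 242 with quantile normalization, 1 with upper-quartile scaling, 1551 with array weights, 1013 with the level from Hba-a1 and Hba-a2 alone, 102 without the photoreceptor-rich libraries, and 0 to 3023 with 1 library left out (3023 without Ceacam1-/- library 23 and 2199 without 28). Alas2 passed the threshold without either of these 2 libraries (slopes 0.40 and 0.45). With the level as covariate, calls for laser were 1898 in wild type and 4137 in Ceacam1-/- mice without the photoreceptor-rich libraries, 1184 and 808 with the photoreceptor list as covariate, and 346 to 783 and 189 to 5459 with 1 library left out (Ceacam1-/- library 23, 5459; 24, 555; 25, 189). Without the level, array weights gave 6505, 3551 and, for genotype with laser, 297 calls, and fitting the compared libraries alone gave 2274 and 38 for laser. The causes were not tested. The photoreceptor alternatives and the leave-outs with the level were chosen after seeing the data.

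No paired analysis was possible because library numbers are unique and no number is shared between groups. Reads per gene were not recovered, so counting error is unknown, and low values such as those of Slc4a1 and Alas2 are the least certain.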

Other observations

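The gene of lowest p against the globin level was Hspa1a, an inducible heat shock protein gene, whose slope was -0.42 ± 0.07 (adjusted p = 0.0525). Its near-identical neighbour Hspa1b had a slope of -0.66 ± 0.13 (adjusted p = 0.0525). Both were picked after their values were seen, and neither passed the threshold.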
